A study of Mus musculus with 12 samples.

Results

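The 34 genes described here act in G2, mitosis and cytokinesis, and were chosen by name: cyclins and activators of the kinase CDK1, mitotic kinases, checkpoint and anaphase genes, kinetochore proteins, spindle motors, cytokinesis genes and 2 chromosome proteins. All 34 were found among the 37310 genes of the deposited count table, and all 34 passed the filter on low counts that left 16630 genes for testing. RNA-seq was measured in 12 libraries from mouse cell lines that derive from embryonic fibroblasts (MEF), in 4 groups of 3 libraries, labelled as biological triplicates. KO cells are labelled as lacking HP1g, the heterochromatin protein encoded by Cbx3 (the R line), and HPg cells are the same kind of line given HP1g back. KO cells with PMA and HPg cells with PMA received the phorbol ester phorbol 12-myristate 13-acetate, an activator of protein kinase C, at 100 nM in DMSO for 30 min when nearly confluent. KO cells and HPg cells without PMA grew in the same serum-containing medium, and the sources used here do not state their vehicle or density. There is 1 line per genotype, so line and genotype cannot be told apart, and the p-values reflect only how far separate cultures of each line vary.

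As background, transcripts of G2/M genes are scarce in G1, accumulate through S and G2 and are lost again after division, so their level in a bulk culture follows how many cells are cycling. Resting cells hold them down with the DREAM complex, a repressor that contains E2F4, a p130 or p107 pocket protein and the MuvB core. In cycling cells the MuvB core joins B-MYB and FOXM1 instead and the same genes are switched on. DREAM and MuvB reach DNA through LIN54, which binds the cell cycle homology region, and the neighbouring CCAAT boxes are bound by NF-Y.

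The start-site sequences of most of these genes share that layout, which the choice of genes did not use. RefSeq promoter windows (GRCm38.p6, 250 bases before to 50 after the start) were matched for 29 of the 34 genes, and the table holds 27025 genes in all. Both strands were searched for TTTGAA and TTCGAA, the letters of the cell cycle homology region, and for CCAAT. The motif TTCGAA reads the same on both strands, and a homology region and a CCAAT box can share a single base. A homology region was found in 22 of 29 members (75.9%), against 21.7% of all genes in the table, and CCAAT in 22 of 29 (75.9%), against 41.1%. Both together were found in 19 of 29 members (65.5%), against 8.61% of all genes. The 6 promoters shown are the members holding both motifs that had the lowest unadjusted p between the lines, printed 5′ to 3′ from 200 bases before the start to the start, or up to 30 bases past it where that takes in the motif. Capitals mark either form of the homology region, the CCAAT boxes and the reverse complements of these motifs.
Bub1: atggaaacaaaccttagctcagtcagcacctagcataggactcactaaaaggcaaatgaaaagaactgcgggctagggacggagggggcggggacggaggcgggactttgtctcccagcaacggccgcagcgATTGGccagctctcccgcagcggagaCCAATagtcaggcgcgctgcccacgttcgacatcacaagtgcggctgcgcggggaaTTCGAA
Ttk: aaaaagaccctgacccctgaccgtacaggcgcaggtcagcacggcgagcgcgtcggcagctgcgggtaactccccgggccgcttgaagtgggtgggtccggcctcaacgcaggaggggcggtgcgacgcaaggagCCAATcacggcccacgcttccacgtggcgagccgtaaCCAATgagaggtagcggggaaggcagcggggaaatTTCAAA
Cdk1: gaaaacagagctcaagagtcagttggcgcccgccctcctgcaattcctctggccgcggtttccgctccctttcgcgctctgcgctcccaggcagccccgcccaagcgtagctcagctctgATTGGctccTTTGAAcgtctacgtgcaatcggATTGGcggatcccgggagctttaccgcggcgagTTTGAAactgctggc
Mki67: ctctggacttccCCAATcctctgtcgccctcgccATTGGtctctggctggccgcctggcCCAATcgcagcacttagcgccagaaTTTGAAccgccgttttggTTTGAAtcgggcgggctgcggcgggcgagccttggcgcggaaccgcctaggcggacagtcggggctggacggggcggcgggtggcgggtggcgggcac
Cenpf: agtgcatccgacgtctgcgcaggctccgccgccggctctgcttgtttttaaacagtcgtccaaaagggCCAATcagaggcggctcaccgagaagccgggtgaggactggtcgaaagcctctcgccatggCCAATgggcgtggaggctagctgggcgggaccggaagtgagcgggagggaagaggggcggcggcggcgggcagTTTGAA
Cdc20: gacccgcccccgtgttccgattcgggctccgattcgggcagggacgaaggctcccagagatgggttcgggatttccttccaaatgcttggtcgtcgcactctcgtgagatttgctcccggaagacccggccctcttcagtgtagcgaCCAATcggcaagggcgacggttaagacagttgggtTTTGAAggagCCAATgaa

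These stretches lie at chr2:127831840-127832059 (minus strand) for Bub1, chr9:83834489-83834701 (plus strand) for Ttk, chr10:69352913-69353112 (minus strand) for Cdk1, chr7:135716380-135716579 (minus strand) for Mki67, chr1:189688079-189688286 (minus strand) for Cenpf and chr4:118437344-118437543 (minus strand) for Cdc20. In the Bub1, Ttk and Cenpf windows a pair of CCAAT boxes stands upstream of the start, and the homology region follows just past the start. Cdk1 holds 2 homology regions, 71 and 15 bases before the start, with CCAAT boxes before and between them. Mki67 holds its pair of homology regions 116 and 98 bases upstream, downstream of its 3 CCAAT boxes. The close spacing was counted after the positions had been seen. Within 50 bases of the start, 20 of 29 members (69%) held a homology region, against 6.12% of all genes. Within the 100 bases upstream, 20 of 29 (69%) held CCAAT, against 21.6%. Of the forms an E2F motif can take, only GCGGGAA was searched, so a member without it may hold another form. GCGGGAA was in 0 of 29 members, against 5.29% of all genes and 9 of 22 genes of the G1/S list (40.9%). It was also in 6 of 17 other kinetochore and centromere genes (35.3%), 2 of 9 condensin and chromosome genes (22.2%) and 1 of 24 other spindle and cytokinesis genes (4.17%). A homology region was in 8 of 9 condensin and chromosome genes (88.9%) and in 75% of the 24 other spindle and cytokinesis genes, so the homology region is not limited to the 34 members. Nor is CCAAT: it was in 8 of 10 genes that control entry into mitosis (80%) and 12 of 17 other kinetochore and centromere genes (70.6%). It was in 14 of 22 G1/S genes (63.6%) and in 6 of 15 genes of the anaphase-promoting complex (40%). The windows of Ccnb1, Mad2l1, Cenpe, Birc5, Nek2, Nuf2 and Nusap1 held neither TTTGAA nor TTCGAA. Motif matches are descriptions of these letters and not of bound sites.

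**Figure D1:**
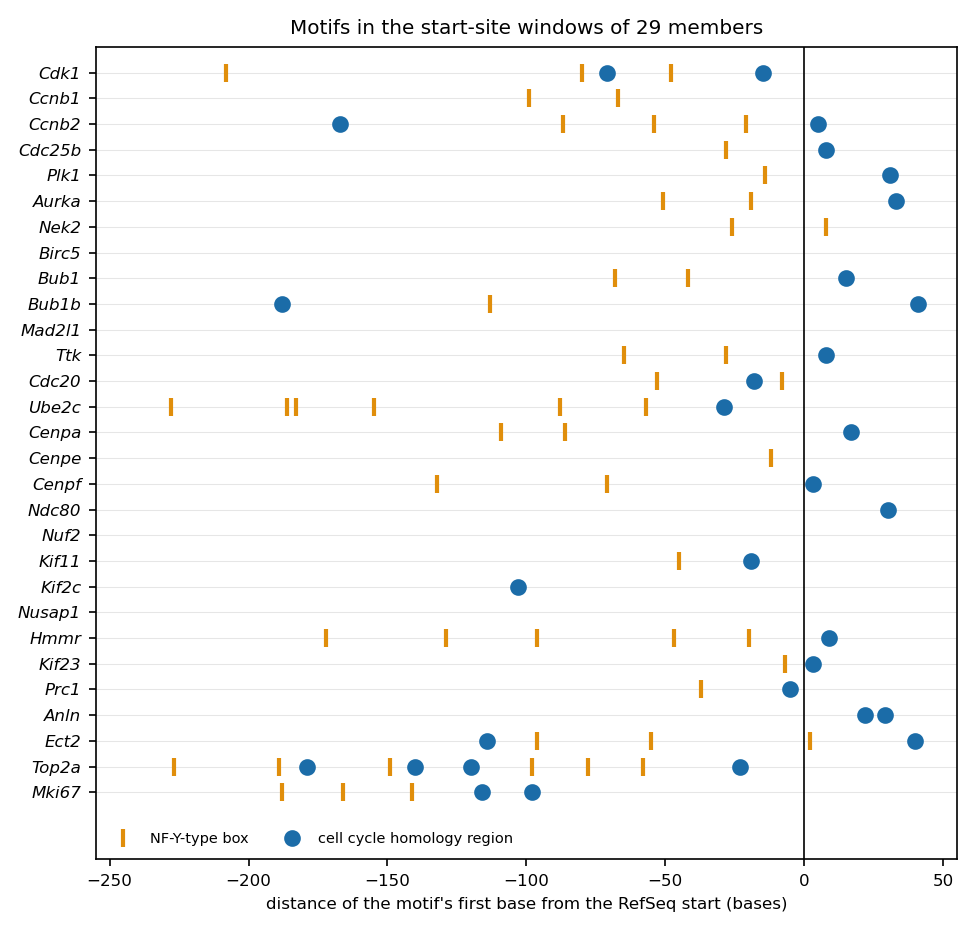
Position of each motif, in bases from the RefSeq start (negative is upstream), for the 29 members with a promoter window, each on its own line. Blue circles are cell cycle homology regions and orange bars are CCAAT (NF-Y-type) boxes; most circles stand within 50 bases of the start, with the bars upstream of them.

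Total counts per library ranged from 111458145 to 159929347, and the members had between 2032 (Ube2c) and 86405 (Top2a) counts in each library. Counts of 2 libraries of a group differed by far more than sampling noise in every pair. HPg library 2 stood apart with 17822 genes detected, against 19759 to 20656 in the other 11 libraries, and 3 short RNAs (Rpph1, Rn7sk and Rmrp) took 8.59% to 19.3% of the counts. Of 10 fibroblast markers, Col1a1, Vim, Fn1, Col3a1, Pdgfra and Pdgfrb averaged 108 CPM (read counts relative to the library's total, scaled with TMM factors) or more, while Col1a2 averaged 10.1, Dcn 5.65 and Lum 0.125 CPM and Thy1 0.011 CPM. Cbx3, the targeted gene, had 35.5, 39.0 and 35.0 CPM in KO cells, against 37.1, 37.4 and 41.5 CPM in HPg cells. With PMA, Cbx3 had 33.3, 26.9 and 35.2 CPM in KO cells, against 43.1, 33.8 and 38.9 CPM in HPg cells. The groups overlapped both times, and Cbx3 was not called (log2 fold change -0.08 ± 0.13 and -0.28 ± 0.13 (SE), adjusted p = 0.838 and 0.269). Its counts therefore do not check the genotype labels, and "KO" names below the libraries labelled so. The sources used here do not state which part of the transcript the knockout removed.

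Each member's level is given in CPM per library, in the order of the replicate numbers 1, 2 and 3. Between genes, levels are compared only per kilobase of the transcript. On that scale Top2a, the topoisomerase that untangles sister chromatids, was highest at 87.5 CPM per kilobase averaged over the 12 libraries. Anln, the actin-binding scaffold anillin of the cleavage furrow, followed with 67.4, and Cdc20, the activator of the anaphase-promoting complex, with 61.6. The lowest were Mad2l1, a spindle checkpoint protein, at 3.92 CPM per kilobase, and the kinetochore genes Cenpf at 5.01 and Cenpe at 7.60. These ranks depend on the transcript taken for the length, the longest principal one, which has 7557 bases for Mad2l1.

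Without PMA, most of the 34 genes were somewhat lower in KO cells than in HPg cells, and none passed the test. Their median log2 fold change was -0.19, a difference of -12.4% in level, against a median of 0.01 over all genes tested. In 30 of 34 members (88.2%) the log2 fold change was below 0, against 48.7% of all genes, and single values ran from -0.62 (Cdk1) to 0.07 (Cenpe). edgeR's quasi-likelihood test called 0 members at an adjusted p below 0.05, where 1.32% of all genes were called, and DESeq2 called 0. At an unadjusted p below 0.05, 4 members were lower (11.8%, against 6.48% of all genes): Cdk1, Cdc20, Plk1 and Tpx2, and 0 were higher (against 7.85% of all genes). In bulk RNA, fewer cells in G2 or mitosis and less RNA per cell cannot be told apart.

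With PMA in both lines the median was -0.29, a difference of -18%, against 0.01 over all genes. All 34 log2 fold changes were below 0, from -0.77 (Cenpf) to -0.01 (Ccnb2), although Ccnb2, Cenpa and Cdc25c lay just above 0 with upper-quartile scaling (0.06, 0.01 and 0.02). edgeR called 0 members, where 2.47% of all genes were called, while DESeq2 called 1, Bub1 (adjusted p = 0.0321). At an unadjusted p below 0.05, 8 members were lower (23.5%, against 9.29% of all genes): Bub1, Ttk, Mad2l1, Tpx2, Cdk1, Mki67, Cenpf and Cenpe, and 0 were higher (against 9.13%). Without HPg library 2 with PMA, edgeR called Bub1, and without all libraries numbered 2 it called 5 members with PMA (Cdk1, Bub1, Mad2l1, Ttk and Ndc80) and 1 without PMA (Cdk1), all lower. The 2 line comparisons use different libraries but the same lines and the same fit. Libraries with the same number deviated together with and without PMA, so the 2 comparisons are not independent.

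The members also differed between the replicate numbers. In each group the library numbered 2 was lowest for most members: 27 of 34 in KO cells, 30 of 34 in HPg cells, 23 of 34 in KO cells with PMA and 33 of 34 in HPg cells with PMA. Over all genes, the library numbered 2 was lowest for 40.9%, 42.9%, 35.2% and 38.2%. The median difference of the members from their own 12-library mean was 0.04, -0.28 and -0.09 (log2) in the KO libraries 1, 2 and 3, against 0.32, -0.21 and 0.21 in the HPg libraries. With PMA it was -0.13, -0.29 and 0.01 in KO cells, against 0.34, -0.14 and 0.26 in HPg cells. So libraries 1 and 3 of HPg cells were high in both conditions, and the groups overlapped through library 2. Summed over the 34 genes, the level was 2958 ± 272 CPM in KO cells and 3416 ± 517 CPM in HPg cells, and with PMA 2920 ± 312 CPM in KO cells and 3649 ± 658 CPM in HPg cells (SD, n = 3 each). The libraries numbered 2 also had the highest sums of the 10 fibroblast markers, 14030 to 16320 CPM, against 9204 to 11260 CPM in the other 8. The markers did not all go this way. Col1a1, Col3a1 and Fn1 were highest in the library numbered 2 of every group, while Vim was lowest there. In library 2 Vim had 2798 CPM in KO cells and 3613 CPM in HPg cells, and with PMA 3031 and 3504 CPM. By group the fibroblast sums overlapped between the lines: 10510 to 15720 CPM in KO cells, against 9591 to 16320 CPM in HPg cells, and with PMA 10580 to 14530 CPM in KO cells, against 9204 to 14030 CPM in HPg cells. Endothelial marker sums were 5.28 to 8.80 CPM in the libraries numbered 2, against 1.90 to 4.02 CPM in the others, with Cdh5 at 0.00976 CPM over all 12. Muscle markers summed to 1.02 to 1.38 CPM in KO cells, against 0.363 to 0.897 CPM in HPg cells, and with PMA to 1.14 to 1.33 CPM in KO cells, against 0.326 to 0.571 CPM in HPg cells, with Myod1 at 0 in every library and 5 of 6 markers below 0.1 CPM on average. Blood and immune markers summed to 2.77 to 3.22 CPM in KO cells, against 1.98 to 2.91 CPM in HPg cells, and with PMA to 3.47 to 5.05 CPM in KO cells, against 2.94 to 3.40 CPM in HPg cells, with 2 of 5 markers below 0.1 CPM on average. So the lines did not overlap in the muscle sums in either condition or in the blood and immune sums with PMA. These low sums rest on few genes: muscle on Des (0.784 CPM over all 12), blood and immune mostly on Cd68 (1.81 CPM) and Cd14 (1.24 CPM). Neural sums, mostly Map2 (227 CPM), were 228.2 to 345.9 CPM in the libraries numbered 2, against 179.1 to 263.2 CPM in the others. Epithelial sums, mostly Cdh1 (6.25 CPM), were 5.095 to 6.307 CPM there, against 6.267 to 10.46 CPM. Adipocyte sums were 1.551 to 2.335 CPM there, against 1.106 to 4.275 CPM. By group, the sums of these last lists overlapped between the lines in both conditions. The part of these markers in the members' levels was not tested.

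**Figure D2:**
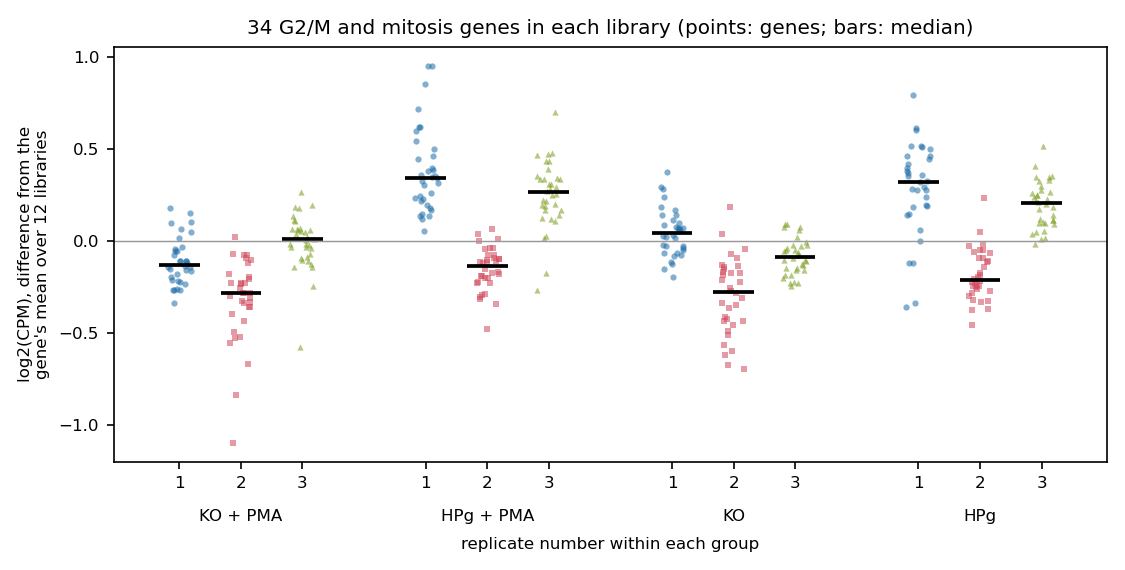
Each point is 1 of the 34 genes in 1 library, as the difference of its log2(CPM) from the gene's own mean over 12 libraries; the x axis gives the replicate number within each group and the black bars the median of the 34. Libraries 1 and 3 of HPg cells, with and without PMA, have medians of 0.21 to 0.34, and the libraries numbered 2 have medians of -0.29 to -0.14.

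Libraries with the same number deviated together across the groups, so the number was also fitted as a block, which compares KO with HPg libraries of the same number. The block lowered the members' median standard error to 0.11, against 0.19 (log2) without it, and then 7 members were called lower without PMA (20.6%, against 5.44% of all genes) and 0 higher (against 7.08%). With PMA, 10 members were called lower (29.4%, against 9.09% of all genes) and 0 higher (against 9.49%). Both sets share Cdk1 and Kif2c, and 15 members were called in either. Within all 3 numbers, KO was the lower library for 21 of 34 members without PMA (61.8%, against 25.5% of all genes) and for 28 of 34 with PMA (82.4%, against 25.8%). The median KO against HPg difference of the members was -0.24, -0.09 and -0.27 (log2) in the numbers 1, 2 and 3 without PMA, and -0.50, -0.12 and -0.23 with PMA. The number of calls by the block rests on the libraries numbered 3. Without them the block called 0 members in either comparison, and 145 and 211 genes in all, against 2083 and 3090 with them. The members' median log2 fold change in the blocked fit changed little. It was -0.18 without PMA and -0.30 with PMA without these libraries, against -0.19 and -0.28 with them.

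**Figure D3:**
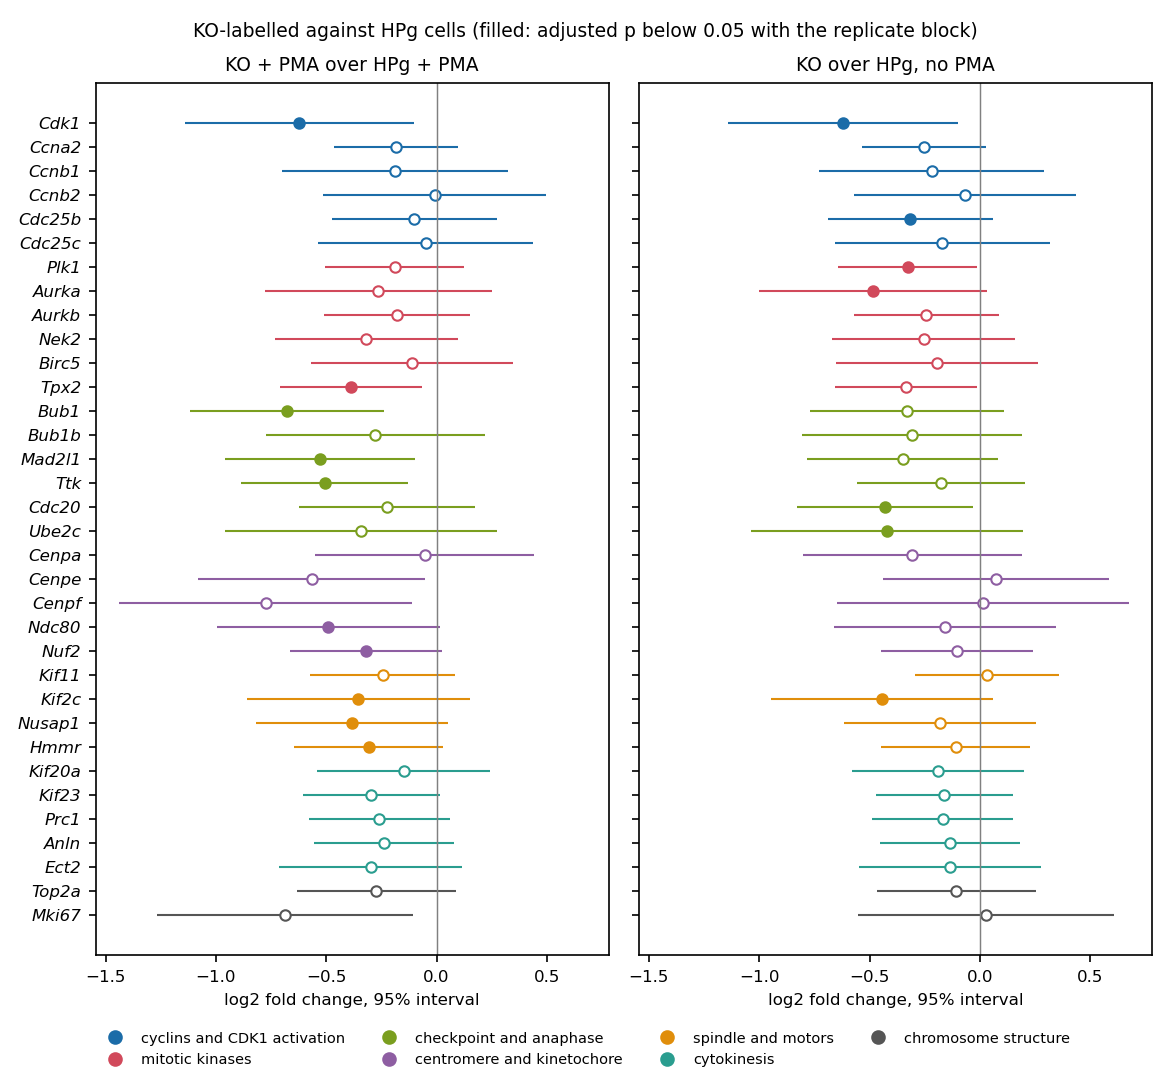
log2 fold changes of the 34 members between KO and HPg cells, with PMA (left) and without (right), with the 95% interval of the edgeR fit without the block, coloured by role. Filled circles were called at an adjusted p below 0.05 with the replicate block: 10 members with PMA and 7 without, all below 0.

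Among the 6 genes of CDK1 and its activation, Cdk1, the kinase that drives mitosis, differed most. Cdk1 had 204, 132 and 181 CPM in KO cells, against 304, 184 and 307 CPM in HPg cells. With PMA, Cdk1 had 178, 159 and 204 CPM in KO cells, against 274, 209 and 349 CPM in HPg cells. Every KO library was below the HPg library of its number, and with PMA the groups did not overlap. The log2 fold change was -0.62 ± 0.24 without PMA and -0.62 ± 0.24 with PMA (SE), which edgeR did not call (adjusted p = 0.251 and 0.19) and the block did (0.00495 and 0.00403). Ccnb1, its mitotic cyclin B1, had 126, 75.8 and 105 CPM in KO cells, against 140.4, 81.8 and 135 CPM in HPg cells, and with PMA 119.8, 91.1 and 121 CPM in KO cells, against 146, 99.2 and 133 CPM in HPg cells. KO was lower within every number, by a small step beside the gap between numbers. Its log2 fold change was -0.22 ± 0.24 and -0.19 ± 0.24 and was called in neither fit. Ccnb2, cyclin B2, showed the smallest difference with PMA (-0.01): it had 61.4, 39.6 and 50.4 CPM in KO cells, against 65.3, 41.0 and 52.3 CPM in HPg cells, and with PMA 52.7, 37.8 and 44.1 CPM in KO cells, against 59.4, 34.01 and 41.9 CPM in HPg cells. Cdc25b, a phosphatase that switches CDK1 on, had 49.3, 35.5 and 50.7 CPM in KO cells, against 62.2, 45.1 and 61.2 CPM in HPg cells. It was lower in every number (-0.31 ± 0.17, adjusted p = 0.446, and 0.0245 with the block). With PMA the Cdc25b levels were 49.2, 40.0 and 49.4 CPM in KO cells, against 50.5, 42.5 and 55.5 CPM in HPg cells. Ccna2, cyclin A2, was -0.25 and -0.18, and Cdc25c, a related phosphatase, -0.17 and -0.05. Neither was called in either fit.

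The 6 mitotic kinases and their partners were all below 0 in both comparisons, with medians of -0.29 without PMA and -0.23 with PMA. Aurka, the kinase Aurora A of centrosomes, had 59.4, 34.3 and 47.0 CPM in KO cells, against 83.2, 43.8 and 69.8 CPM in HPg cells. With PMA, Aurka had 57.3, 45.0 and 51.7 CPM in KO cells, against 64.8, 50.6 and 69.3 CPM in HPg cells. KO was lower in each number, and the groups overlapped. The log2 fold change was -0.48 ± 0.24 without PMA (adjusted p = 0.385, and 0.017 with the block) and -0.26 ± 0.24 with PMA (not called). Plk1, the polo kinase of mitotic entry and exit, had 35.1, 29.4 and 32.9 CPM in KO cells, against 48.8, 32.9 and 40.5 CPM in HPg cells, and with PMA 30.7, 29.7 and 31.4 CPM in KO cells, against 37.6, 30.1 and 37.0 CPM in HPg cells. Without PMA it was -0.33 ± 0.15 (adjusted p = 0.327, and 0.0487 with the block), just inside the threshold. Tpx2, which activates Aurora A on the spindle, was the 1 member whose groups did not overlap in either comparison. Tpx2 had 91.5, 87.7 and 86.7 CPM in KO cells, against 131, 97.9 and 106 CPM in HPg cells. With PMA, Tpx2 had 82.9, 91.8 and 90.5 CPM in KO cells, against 141, 97.1 and 109 CPM in HPg cells. Its log2 fold change was -0.33 ± 0.15 without PMA (not called) and -0.39 ± 0.15 with PMA (adjusted p = 0.187, and 0.0411 with the block). Over all genes, 8.95% without PMA and 12.4% with PMA had all KO libraries below all HPg libraries, against 1 and 3 of the 34 members (2.94% and 8.82%). Aurkb and Birc5, both of the chromosomal passenger complex, and Nek2, a centrosome kinase, lay between -0.25 and -0.19 without PMA and between -0.32 and -0.11 with PMA, and none was called in either fit.

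Checkpoint and anaphase genes had the lowest group median without PMA, -0.34, and -0.42 with PMA. Bub1, a checkpoint kinase at kinetochores, had 34.9, 29.2 and 30.3 CPM in KO cells, against 44.3, 31.5 and 42.8 CPM in HPg cells. With PMA, Bub1 had 29.6, 24.2 and 33.3 CPM in KO cells, against 58.4, 33.01 and 48.0 CPM in HPg cells. The KO libraries were low with PMA, and the groups overlapped only through KO library 3 and HPg library 2. With PMA Bub1 was -0.68 ± 0.20, the lowest p of the 34 (adjusted p = 0.0995 by edgeR, 0.0021 with the block), and without PMA -0.33 ± 0.20 (not called). Ttk, the kinase MPS1 that starts the checkpoint, had 24.5, 23.4 and 25.2 CPM in KO cells, against 26.7, 23.2 and 32.6 CPM in HPg cells, and with PMA 21.8, 17.8 and 25.3 CPM in KO cells, against 34.8, 23.9 and 33.6 CPM in HPg cells. With PMA it was -0.51 ± 0.18 (adjusted p = 0.149, and 0.00574 with the block), and without PMA -0.18 ± 0.17. Mad2l1, which holds CDC20 inactive until chromosomes attach, had 27.9, 20.5 and 26.04 CPM in KO cells, against 35.1, 23.0 and 36.9 CPM in HPg cells. With PMA, Mad2l1 had 25.5, 22.5 and 28.2 CPM in KO cells, against 44.4, 29.6 and 35.9 CPM in HPg cells, without overlap. Its log2 fold change was -0.35 ± 0.20 without PMA (not called) and -0.53 ± 0.20 with PMA (adjusted p = 0.181, and 0.00557 with the block). Bub1b, the checkpoint protein BUBR1, was -0.31 and -0.28 and was called in neither fit.

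The anaphase genes Cdc20 and Ube2c were called by the block without PMA and not with PMA. Cdc20 had 112, 80.2 and 101 CPM in KO cells, against 166, 105 and 125 CPM in HPg cells. With PMA, Cdc20 had 104, 90.7 and 98.3 CPM in KO cells, against 124, 92.5 and 126 CPM in HPg cells. KO was lower in each number, and the groups overlapped. Cdc20 was -0.43 ± 0.18 without PMA (adjusted p = 0.3, and 0.0141 with the block) and -0.22 ± 0.18 with PMA (not called). Ube2c, the ubiquitin-conjugating enzyme of the anaphase-promoting complex, had 34.2, 21.7 and 24.5 CPM in KO cells, against 48.4, 26.6 and 32.5 CPM in HPg cells, and with PMA 29.9, 22.1 and 18.7 CPM in KO cells, against 42.2, 24.2 and 23.2 CPM in HPg cells. Without PMA it was -0.42 ± 0.28 (adjusted p = 0.562, and 0.028 with the block). A call in 1 condition and not in the other does not show that the conditions differ: the interaction of line and PMA was called for neither gene (0.21 ± 0.26 and 0.08 ± 0.40, adjusted p = 1). Cdc20 overlaps Elovl1 and Ube2c overlaps Tnnc2 on the opposite strand, and the sources used here do not state the strand setting of the authors' counting, so these counts may hold reads of the neighbour. The same holds for Ccna2, Kif20a, Cdc25b, Cdc25c, Prc1 and Nusap1.

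**Figure D4:**
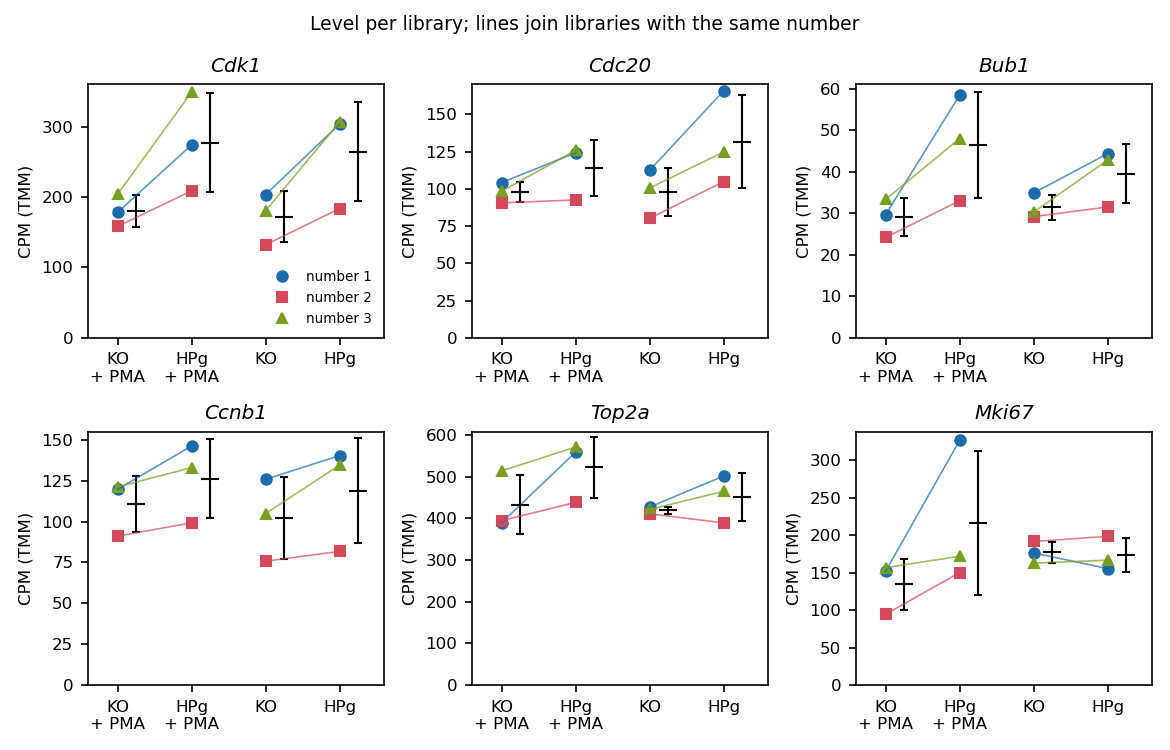
Level in CPM (TMM-scaled) of 6 members in each library; symbols give the replicate number, coloured lines join the KO and HPg libraries of the same number, and the black bar and whiskers are the mean ± SD of 3 libraries. Cdk1, Cdc20 and Bub1 are lower in KO cells within every number, and Mki67 is not without PMA.

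Centromere and kinetochore genes were near 0 without PMA (median -0.10) and had the lowest role median with PMA (-0.49). Ndc80 and Nuf2 form the rod that grips microtubules. Ndc80 had 62.0, 47.2 and 54.4 CPM in KO cells, against 70.9, 45.1 and 66.4 CPM in HPg cells, and with PMA 54.1, 40.5 and 61.0 CPM in KO cells, against 89.6, 49.9 and 79.0 CPM in HPg cells. Nuf2 had 36.1, 36.8 and 40.3 CPM in KO cells, against 38.0, 38.7 and 44.8 CPM in HPg cells, and with PMA 32.7, 36.5 and 49.8 CPM in KO cells, against 48.1, 43.3 and 57.4 CPM in HPg cells. Both overlapped between the lines. With PMA Ndc80 was -0.49 ± 0.23 (adjusted p = 0.285, and 0.00835 with the block) and Nuf2 -0.32 ± 0.16 (0.303, and 0.0317 with the block). Cenpf, a large kinetochore protein of G2, had 54.0, 54.4 and 56.5 CPM in KO cells, against 41.9, 54.8 and 66.6 CPM in HPg cells. With PMA, Cenpf had 45.7, 24.8 and 55.2 CPM in KO cells, against 102, 45.5 and 67.1 CPM in HPg cells, so HPg library 1 was high and KO library 2 low. Cenpe, the kinetochore motor CENP-E, had 57.3, 55.6 and 61.4 CPM in KO cells, against 45.5, 57.6 and 62.5 CPM in HPg cells, and with PMA 56.2, 36.7 and 60.9 CPM in KO cells, against 106, 54.1 and 68.1 CPM in HPg cells, with the same HPg library high. With PMA Cenpf was -0.77 ± 0.31 and Cenpe -0.57 ± 0.24, and neither was called in either fit. Without HPg library 1 with PMA they were -0.43 and -0.26. Cenpa, the histone H3 variant of centromeres, had 70.2, 38.7 and 56.5 CPM in KO cells, against 82.1, 50.4 and 72.1 CPM in HPg cells, and with PMA 67.3, 50.8 and 57.9 CPM in KO cells, against 67.3, 48.6 and 66.9 CPM in HPg cells. Its log2 fold change was -0.31 ± 0.23 without PMA and -0.05 ± 0.23 with PMA.

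Of the 4 spindle genes, Kif2c, a kinesin that takes microtubule ends apart, was called with the block in both comparisons. Kif2c had 66.5, 41.7 and 57.7 CPM in KO cells, against 90.2, 51.8 and 83.5 CPM in HPg cells. With PMA, Kif2c had 59.7, 47.9 and 62.0 CPM in KO cells, against 73.8, 55.7 and 87.4 CPM in HPg cells. KO was lower in each number, with a log2 fold change of -0.44 ± 0.23 without PMA (adjusted p = 0.419, and 0.0167 with the block) and -0.35 ± 0.23 with PMA (0.452, and 0.0378 with the block). Nusap1, a spindle-associated protein, had 66.1, 45.1 and 59.0 CPM in KO cells, against 70.9, 50.6 and 71.3 CPM in HPg cells, and with PMA 58.5, 42.6 and 59.4 CPM in KO cells, against 82.5, 55.5 and 71.6 CPM in HPg cells. Hmmr, a spindle and hyaluronan-binding protein, had 75.1, 63.5 and 64.8 CPM in KO cells, against 82.0, 60.3 and 77.2 CPM in HPg cells, and with PMA 66.4, 59.0 and 74.6 CPM in KO cells, against 91.3, 67.1 and 89.1 CPM in HPg cells. With PMA Nusap1 was -0.39 ± 0.20 (0.00585 with the block, adjusted p) and Hmmr -0.31 ± 0.16 (0.0432), while without PMA they were -0.18 and -0.11 and not called. Kif11, the motor that separates spindle poles, was 0.03 without PMA and -0.24 with PMA and was called in neither fit.

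The 5 cytokinesis genes lay close together, between -0.19 (Kif20a) and -0.13 (Ect2) without PMA and between -0.30 (Ect2) and -0.15 (Kif20a) with PMA, and none was called in either fit. They are the kinesins Kif20a and Kif23, the microtubule bundler Prc1, anillin (Anln) and the RhoA activator Ect2. Top2a had 427, 411 and 421 CPM in KO cells, against 502, 389 and 465 CPM in HPg cells. With PMA, Top2a had 389.5, 395 and 514 CPM in KO cells, against 559, 438 and 571 CPM in HPg cells. Its log2 fold change was -0.11 ± 0.17 and -0.27 ± 0.17, not called. Mki67, the proliferation marker Ki-67 that coats mitotic chromosomes, had 176, 192 and 163 CPM in KO cells, against 156, 199 and 167 CPM in HPg cells, with KO lower in 2 of 3 numbers. With PMA, Mki67 had 152, 94.6 and 157 CPM in KO cells, against 327, 150.1 and 172 CPM in HPg cells, and HPg library 1 was the highest of the 12. Its log2 fold change was 0.03 ± 0.27 without PMA and -0.69 ± 0.27 with PMA (adjusted p = 0.197, and 0.0975 with the block), and -0.27 without that library. Mki67, Cenpf and Cenpe have the longest transcripts of the members (10061, 11130 and 7910 bases). With a correction for GC content and transcript length they were -0.55, -0.58 and -0.39 with PMA.

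The response to PMA itself was then compared within each line. After 30 min, no member was called in KO cells, where 4.44% of all genes were called, or in HPg cells, where 3.45% were. No member had an unadjusted p below 0.05, against 15.9% of all genes in KO cells and 17.4% in HPg cells. DESeq2 also called 0, and so did the block, which called 13.4% and 14.8% of all genes. The median log2 fold change of the members was -0.01 in KO cells, with -0.40 (Mki67) to 0.13 (Aurka) as the range, and 0.06 in HPg cells, with -0.26 (Ube2c) to 0.46 (Cenpe), against medians of -0.02 and -0.02 over all genes. Neither sign held under every alternative: the median ran from -0.14 to 0.08 in KO cells and from -0.11 to 0.21 in HPg cells. With library size alone, 33 of 34 members were below 0 in KO cells, where the median over all genes moved to -0.14 as well. The 95% interval for Cdk1 was -0.45 to 0.58 in KO cells and -0.45 to 0.59 in HPg cells, and for Ccnb1 -0.39 to 0.63 in KO cells and -0.42 to 0.60 in HPg cells. These intervals come from the fit without the block. Of the 34, Mki67 (lower) and Kif23 (higher, 0.12) had groups that did not overlap in KO cells (against 21.8% of all genes in either direction), and 0 did in HPg cells (against 22.7%). Each PMA comparison shares its libraries with the line comparisons above, so the values are not independent of them.

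The interaction of line and PMA, the PMA response in KO cells minus that in HPg cells, was called for 0 members and for 0% of all genes. No member had an unadjusted p below 0.05, against 1.97% of all genes, and the block called 0 of both. The lowest values were Cenpf at -0.79 ± 0.43, Mki67 at -0.72 ± 0.38 and Cenpe at -0.64 ± 0.33 (adjusted p = 1 each), and the highest was Cenpa at 0.25 ± 0.32. For the long transcripts Cenpf, Mki67 and Cenpe, PMA gave values below 0 in KO cells (-0.39, -0.40 and -0.18) and above 0 in HPg cells (0.40, 0.32 and 0.46). Without HPg library 1 with PMA the interaction was -0.44 for Cenpf, -0.29 for Mki67 and -0.33 for Cenpe.

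**Figure D5:**
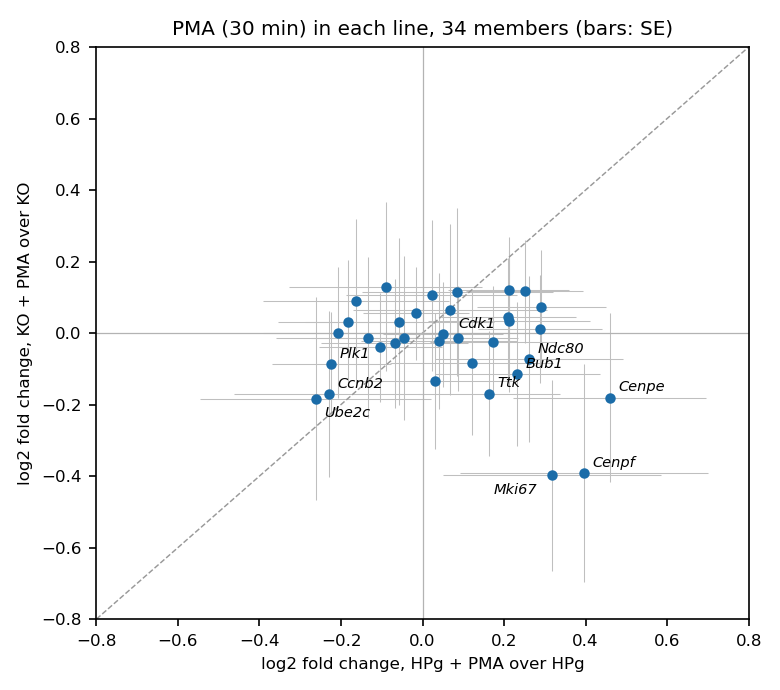
log2 fold change of each member after 30 min of PMA, in KO cells (y axis) and in HPg cells (x axis), with standard errors; the dashed line marks equal values. Mki67, Cenpf and Cenpe are the farthest from the dashed line, below 0 in KO cells and above 0 in HPg cells.

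Other genes of the pathway were read in 9 lists. Between the lines, 1.32% of all genes without PMA and 2.47% with PMA were called in either direction without the block. With the block, 5.44% and 9.09% of all genes were called lower. A count near these shares shows nothing particular to its list. Kinetochore and centromere genes outside the 34 had medians of -0.18 without PMA and -0.26 with PMA over 21 genes. Without the block 0 and 2 of them were called lower in the same order, and with it 1 and 7. Spc25, a partner of Ndc80 and Nuf2 in the same complex, averaged 20.5 ± 3.39 CPM in KO cells and 32.3 ± 4.46 CPM in HPg cells with PMA (SD, n = 3 each), a log2 fold change of -0.66 ± 0.14 (adjusted p = 0.0372). Zwint, which links the kinetochore to the checkpoint, averaged 178 ± 13.7 CPM in KO cells and 265 ± 37.3 CPM in HPg cells with PMA (-0.57 ± 0.13, adjusted p = 0.0439). After PMA, Zwint was 0.48 ± 0.13 in KO cells (adjusted p = 0.0651, and 0.00598 with the block) and 0.69 ± 0.13 in HPg cells (adjusted p = 0.0143), and the interaction was not called (-0.21 ± 0.19, adjusted p = 1). Without PMA, Zwint was -0.36 between the lines (adjusted p = 0.226, and 0.0324 with the block). Cenpm was -0.34 without PMA and was called in neither fit. Of 13 entry control genes (medians -0.14 and -0.14), 0 without PMA and 1 with PMA were called lower, against 1 and 3 with the block. Mastl, the Greatwall kinase that keeps mitotic phosphorylation in place, averaged 19.9 ± 1.83 CPM in KO cells and 30.4 ± 4.39 CPM in HPg cells with PMA (-0.61 ± 0.14, adjusted p = 0.0372). Ccnf, cyclin F, was -0.48 without PMA (adjusted p = 0.172, and 0.00906 with the block), and Pkmyt1, a kinase that inhibits CDK1, was -0.26 and called in neither fit.

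No gene of the next 5 lists was called in either line comparison without the block, and the block called some in each list, all lower. The block's counts are given without PMA first and then with PMA, and its adjusted p follows each gene it called. They stand against 5.44% and 9.09% of all genes called lower by the block. The 10 condensin and chromosome genes had medians of -0.16 and -0.31, and the block called 1 and 4. Without PMA, Ncaph was -0.43 (0.023 with the block) and Ncapd3 -0.21. The 27 other spindle and cytokinesis genes had -0.18 and -0.29, and the block called 5 and 9. Sapcd2 was -0.60 (0.00495 with the block) and the motor Kifc1 -0.34 (0.0294 with the block). The 9 cohesion genes had -0.03 and -0.14, and the block called 1 and 2. Wapl, which releases cohesin, was above 0 at 0.33 and separase (Espl1) was at -0.21, called in neither fit. The 16 genes of the anaphase-promoting complex and its regulators had -0.10 and -0.03, and the block called 1 and 2. Fbxo5, its inhibitor EMI1, was -0.39 and Fzr1, its activator CDH1, -0.44 (0.00735 with the block). The 27 G1/S genes tested, which act before replication, had -0.22 and -0.20, and the block called 5 and 7. E2f1 was -0.52 (0.00497 with the block) and the helicase subunit Mcm2 -0.38 (0.0325 with the block).

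The 18 genes that control G2/M transcription had medians of -0.19 and -0.21. No gene was called without the block, and 5 were called lower with it in each line comparison (against 5.44% of all genes without PMA and 9.09% with PMA). Mybl2, which encodes B-MYB, averaged 18.1 ± 2.48 CPM in KO cells and 26.8 ± 1.09 CPM in HPg cells (-0.57 ± 0.14, adjusted p = 0.0716, and 0.00984 with the block). E2f4, of the DREAM complex, averaged 23.7 ± 0.564 CPM in KO cells and 31.4 ± 0.913 CPM in HPg cells (-0.41 ± 0.10, adjusted p = 0.088, and 0.00805 with the block). Without PMA, every KO library was below every HPg library in both genes. With PMA, Mybl2 averaged 16.1 ± 1.08 CPM in KO cells and 21.5 ± 3.27 CPM in HPg cells (-0.41 ± 0.14, adjusted p = 0.139, and 0.0378 with the block), again without overlap. E2f4 averaged 29.1 ± 1.94 CPM in KO cells and 31.9 ± 2.96 CPM in HPg cells with PMA, where the groups overlapped (-0.13 ± 0.10, called in neither fit). The members whose windows held a homology region had a median log2 fold change of -0.17 without PMA and -0.29 with PMA (22 genes), against -0.19 and -0.32 for those without one (7 genes). Of the 11 genes tested in the list of cell cycle inhibitors and p53 targets, 3 were called higher after PMA in both lines: Cdkn1a (the CDK inhibitor p21), Btg2, an antiproliferative gene, and Mdm2, a p53 target that encodes the ubiquitin ligase that degrades p53. The log2 fold changes were 1.89, 4.89 and 0.60 in KO cells, and 1.51, 4.62 and 0.72 in HPg cells, while the 34 members were not called after PMA in either line. Between the lines, the 11 genes had medians of -0.05 without PMA and -0.06 with PMA. The block called 3 lower and 0 higher without PMA (against 5.44% and 7.08% of all genes). With PMA it called 2 lower and 2 higher (against 9.09% and 9.49%). With PMA, Cdkn1a averaged 34.8 ± 5.91 CPM in KO cells and 21.3 ± 3.57 CPM in HPg cells, with every KO library above every HPg library. Over all genes, 28.1% had the KO library higher within each number with PMA. Without the block, 0 genes of this list were called higher between the lines in either condition, so Cdkn1a was not called there. Without PMA the Cdkn1a groups overlapped. Mdm2 was called lower in KO cells than in HPg cells with PMA (-0.44 ± 0.10, adjusted p = 0.0434), and without PMA it was -0.32 (adjusted p = 0.154, and 0.0328 with the block). Cdkn2c, which encodes the CDK inhibitor p18, was -0.41 without PMA (adjusted p = 0.1, and 0.016 with the block).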

How the data were processed

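RNA-seq was measured in 12 libraries of 4 groups of 3. Per the labels' protocols, ribosomal RNA was removed before strand-specific libraries were prepared from total RNA and sequenced from both ends. The values the authors deposited are read counts for each gene, all whole and without normalization. Per the submitters' processing notes, the reads went through cutadapt 1.11, were aligned to mm9 with STAR 2.5.0a and counted with featureCounts 1.4.6-p3 of Subread; the sources used here do not state the annotation release or strand setting. Other experiments of the series were not analysed here.

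Counts were tested in R 4.3.3 with edgeR 4.0.16 (TMM factors, default filterByExpr, robust quasi-likelihood F-test, two-sided), with all 12 libraries in 1 fit, and p-values were adjusted by Benjamini-Hochberg over all 16630 genes; an adjusted p below 0.05 was called. Standard errors and 95% intervals come from the same fit. Levels are CPM with TMM factors, printed by library. With 3 against 3 libraries an exact permutation test cannot go below p = 0.1, so none was run. Symbols, transcript lengths (the longest principal transcript) and overlaps came from GENCODE M21 on GRCm38, another build than the files', and promoters from RefSeq on GRCm38.p6. The scripts were tested on simulated counts.

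Replicate numbers were taken as pairs: each library's deviations from its group mean had a correlation of 0.159 to 0.558 in each of 18 same-number pairs, and of -0.517 to 0.163 in the 36 other pairs. The pairing is read from the data, since the labels give numbers but not what they stand for. The blocked fit stands beside each printed fold change whose call it changes.

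Alternatives were DESeq2 1.42.0, other scaling factors and filters, only the 2 groups compared, the block, a correction for GC content and length, and leaving out libraries. The 34 genes, the pathway lists and the markers were chosen with earlier results of these data known. Full values are given for members called in either fit, for Cdk1, Ccnb1, Cdc20, Bub1, Plk1, Top2a and Mki67, and for the highest and lowest in each comparison and in level per kilobase; other pathway genes are those called and up to 2 per list by unadjusted p between KO and HPg cells.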

Additional observations from a re-analysis of the deposited data

How the results depend on the processing

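The median of the 34 genes stayed below 0 in both line comparisons under every alternative run (-0.35 to -0.11 without PMA and -0.41 to -0.17 with PMA, of which -0.35 to -0.11 and -0.41 to -0.19 with a library left out). It moved by less than the spread of 0.22 between replicates. That spread is wider than the median of -0.19 without PMA, so by this measure a median of 0 would not count as moved either. For PMA the median of the 34 changed sign between alternatives, -0.14 to 0.08 in KO cells and -0.11 to 0.21 in HPg cells, of which -0.10 to 0.07 and -0.11 to 0.21 with a library left out. In KO cells library size alone gave -0.14, with a median over all genes of -0.14. In HPg cells upper-quartile factors gave -0.02 and the GC and length correction -0.04. The count of members called did not hold, and its cause was not tested. Alternatives that leave out a replicate number, and the block without HPg library 2, were chosen after the data had been seen. With 3 libraries a group and a median standard error of 0.19 (log2), a log2 difference near the members' medians was not called.

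With the replicate block, which follows the pairing of the numbers, 7 members were called without PMA and 10 with PMA, and 12 and 11 with the block and the GC and length correction. The block called 7 and 5 without the libraries numbered 1, 8 and 16 without those numbered 2, 0 and 0 without those numbered 3, and 8 and 11 without HPg library 2. Without the block, leaving out the libraries numbered 2 gave 1 (Cdk1) and 5 (Cdk1, Bub1, Mad2l1, Ttk and Ndc80). DESeq2 called 1 with PMA (Bub1), and leaving out single libraries gave 0 without PMA and 0 to 1 with PMA (Bub1, without HPg library 2 with PMA). For PMA in HPg cells the block called 1 (Ccnb2) with the GC and length correction, 1 (Ccnb2) without the libraries numbered 1 and 1 (Cenpe) without those numbered 2. The block by itself changed no call of a member for PMA in either line or for the interaction.

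Over all genes the calls moved more. Without PMA 219 genes were called, and 775 by DESeq2, 12 with only the 2 groups compared, 416 with the GC and length correction, 592 without the libraries numbered 2 and 46 to 329 without single libraries. With PMA 411 were called, and 1184 by DESeq2, 1359 without the libraries numbered 2 and 60 to 573 without single libraries. PMA in KO cells gave 739, and 1279 by DESeq2 and 295 to 604 without single libraries. PMA in HPg cells gave 574, and 1212 by DESeq2, 222 with only the 2 groups and 244 to 332 without single libraries. The interaction gave 0, and 1 by DESeq2, 1 with the block and no libraries numbered 1, 1 with the block and no HPg library 2, and 0 to 1 without single libraries.

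Counts over all genes are given next for the replicate block, for the block with the GC and length correction, for the block without the libraries numbered 1, 2 and 3 in turn, and for the block without HPg library 2. They were 2083, 2934, 2000, 1861, 145 and 1804 in KO against HPg cells without PMA and 3090, 3478, 1772, 3571, 211 and 3276 with PMA. For PMA they were 2221, 3048, 3606, 1249, 349 and 2491 in KO cells and 2462, 2250, 3239, 1611, 331 and 1124 in HPg cells.

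Of the log2 fold changes of members under an alternative, 48 had another sign than the value reported, 104 became called and 1464 kept sign and side of the threshold. The fit reported called no member, so all of the 48 belong to values that were not called, and it could not be otherwise. Without PMA the GC and length correction gave -0.0411 for Kif11, -0.0165 for Cenpe, -0.11 for Cenpf and -0.0641 for Mki67, and with the block added -0.0367, -0.0455, -0.12 and -0.0901 in the same order. The block without the libraries numbered 1 gave -0.0492 for Cenpe, -0.12 for Cenpf and -0.052 for Mki67. Leaving out the libraries numbered 2 gave -0.0346 for Kif11 with the block and -0.0351 without it. Without single libraries Kif11 was -0.0553 to 0.0756, Cenpe -0.0493 to 0.16, Cenpf -0.14 to 0.18, Mki67 -0.0449 to 0.14 and Ccnb2 -0.24 to 0.11. With PMA, Ccnb2 was 0.0591 with upper-quartile factors, 0.0165 with a filter of 1 CPM, 0.0157 with the block, 0.0211 and 0.0409 with the GC and length correction without and with the block, 0.11 with the block and no libraries numbered 1, 0.0138 with the block and no HPg library 2, and -0.18 to 0.23 without single libraries. Cenpa was 0.014 with upper-quartile factors, 0.027 and 0.0283 with the correction without and with the block, 0.023 with the block and no libraries numbered 3 and -0.20 to 0.0377 without single libraries. Cdc25c was 0.0182 with upper-quartile factors, 0.0136 and 0.0181 with the correction without and with the block, and -0.21 to 0.0686 without single libraries. Birc5 was 0.0638 with the block and no libraries numbered 1. Without single libraries Aurka was -0.0427 to 0.34 for PMA in KO cells and Ube2c -0.59 to 0.0175 for PMA in HPg cells.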
